A study of Mus musculus with 26 samples.

Results

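Transcripts of 9 cytokine receptor chains were followed in leukemia-specific CD8+ T cells: Il7r, Il2ra, Il2rb, Il2rg, Il15ra, Il21r and Il4ra, which belong to receptors built on the common gamma chain, and Il6ra and Il6st, which form the IL-6 receptor. The members were chosen by name, and all 9 were found among 35865 genes with a matched transcript. All 9 also passed the filter on low counts (at least 10 estimated counts in at least 6 libraries), which 14600 genes passed. The cells were Tg101 T cells, CD8+ T cells with a transgenic T cell receptor taken from 1 clone and specific for an H2-Kb-restricted antigen of C1498, a murine leukemia line. The transgene was carried on a Rag2-/- background, so the cells could not rearrange receptors of their own. The labels give strain C57BL/6, wild type genotype and an age of 6 weeks for every sample. Cells were transferred into mice that received C1498 intravenously 1 day later, and were later sorted by flow cytometry.

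Low-input RNA-seq gave 14 libraries in 7 groups. Control libraries (n = 3) came from spleen, replicates 1 and 2 from naive cells at day 0 and replicate 3 from leukemia-free mice at day 18. The undivided library (n = 1) held cells from spleens of leukemia-bearing mice at day 18 that had kept their CellTrace Violet label. Leukemia-bearing mice also gave early spleen (day 7, n = 2), mid spleen (day 14, n = 1), early liver (day 7, n = 2), mid liver (days 13, 13 and 14, n = 3) and late liver (days 18 and 16, n = 2) libraries. In every comparison of a liver group with control, leukemia and tissue changed together and cannot be told apart. Control, mid liver and late liver replicate 1 form the TG series of the sample titles and the other 11 libraries the XC series, which was taken as the sequencing batch. Total estimated counts ranged from 22918996 to 71358287 per library (median 34349319). The labels do not say whether replicates came from separate mice, so p-values measure the spread between these libraries.

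The common gamma chain, encoded by Il2rg, is shared by the receptors for IL-2, IL-4, IL-7, IL-9, IL-15 and IL-21 and passes signals through JAK3. IL-7 binding to the alpha chain encoded by Il7r keeps naive and memory T cells alive, whereas IL-2 and IL-15 signal through the beta chain encoded by Il2rb and the gamma chain, with Il2ra or Il15ra supplying the private alpha chain of each. Il2ra is induced when T cells meet antigen, and Il7r is high in resting T cells. IL-6 uses a separate pair, the binding chain Il6ra and the signalling chain gp130, encoded by Il6st.

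The sorted cell type was checked first. All 8 CD8 T cell markers were detected in every library, with a summed level of 3792 to 9229 CPM (counts scaled to library size with trimmed mean of M values, TMM, factors), and the markers of other lymphocytes were uneven. The 3 CD4 T cell genes summed to at most 11.2 CPM, with Cd4 at most 5.34 CPM and Foxp3 at most 2.98 CPM. The 6 B cell genes summed to 353 to 814 CPM, nearly all of it Ighm (341 to 781 CPM), with Cd79b at up to 43.5 CPM and Pax5 at most 1.19 CPM. The 3 NK cell genes summed to 10.4 to 157 CPM, led by Eomes, which CD8+ T cells also express, with Ncr1 at most 1.99 CPM. Markers of blood and liver cells were uneven. The 5 erythroid genes summed to 5213 and 20332 CPM in the day 0 controls (replicates 1 and 2), led by Hba-a2, against 136 CPM in the day 18 control and 1.18 to 215 CPM in the other 11 libraries. The 10 myeloid genes summed to 497 and 108 CPM in the day 0 controls and 10.6 CPM in the day 18 control, and to at most 50.1 CPM elsewhere. The 5 dendritic cell genes, led by Xcr1 in controls, summed to 48.1 and 42.1 CPM in the day 0 controls, 9.90 CPM in the day 18 control and 5.53 to 7.85 CPM in mid and late liver. The 4 endothelial genes summed to 65.9 to 188 CPM, nearly all of it Pecam1, which T cells also express. The 9 hepatocyte genes summed to 231, 24.7 and 3.80 CPM in mid liver and 378 and 100.01 CPM in late liver, led by Alb, which had at most 1 estimated count in any control. The controls summed to 319, 22.3 and 1.59 CPM on this list, led by Trf. The part of these cells in the results below was not tested beyond the values given with and without single libraries.

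Between control and mid or late liver the receptor set split into chains that gained transcripts, chains that lost them and chains that did not pass the test. Il2ra and Il2rb rose at both time points and Il15ra rose at mid, Il7r and Il6ra fell at both and Il6st fell at late, while Il2rg, Il21r and Il4ra did not pass the test at either. In bulk libraries, fewer cells with a transcript and less transcript per cell cannot be told apart. In the edgeR quasi-likelihood fit, with p-values adjusted by Benjamini-Hochberg over 14600 genes, 5 of 9 members passed an adjusted p of 0.05 in mid liver (3 higher, 2 lower), where 31.3% of all genes passed (17.3% higher, 13.9% lower). In late liver 5 of 9 passed (2 higher, 3 lower), where 37.5% of all genes passed (19.8% higher, 17.7% lower). The median log2 fold change of the 9 members was -0.16 in mid and -0.20 in late liver, beside -0.06 and -0.03 over all genes tested. Taken apart, mid liver libraries lay above all controls for 3 members (21.8% of all genes) and below them for 2 (20.9%), and late liver libraries above for 4 (28.7%) and below for 4 (27.7%). Every library of mid and late liver lay above all 3 controls for 3 members (19.6% of all genes) and below them for 2 members (18% of all genes).

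Single libraries decided whether these calls passed. In mid liver no member passed without control replicate 1 or 2 or mid liver replicate 1 or 3, where 1, 1, 0 and 0 of all genes passed. Of the members, 3 passed without control replicate 3 (Il2ra, Il2rb and Il15ra; 2355 of all genes), and 6 passed without mid liver replicate 2 (3157 of all genes), with Il4ra and Il6st added and Il15ra lost. In late liver no member passed without control replicate 1 (148 of all genes) or late liver replicate 1 or 2 (0 of all genes each). Without control replicate 2 or 3, 4 members passed (3390 and 4126 of all genes). The calls of the members thus came and went with those of all genes. The direction of every called member was kept in all of these fits. Within the XC series alone 0 members passed (0 of all genes tested passed as well), although each of the called members kept its direction in the TG and in the XC libraries taken apart.

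**Figure D1:**
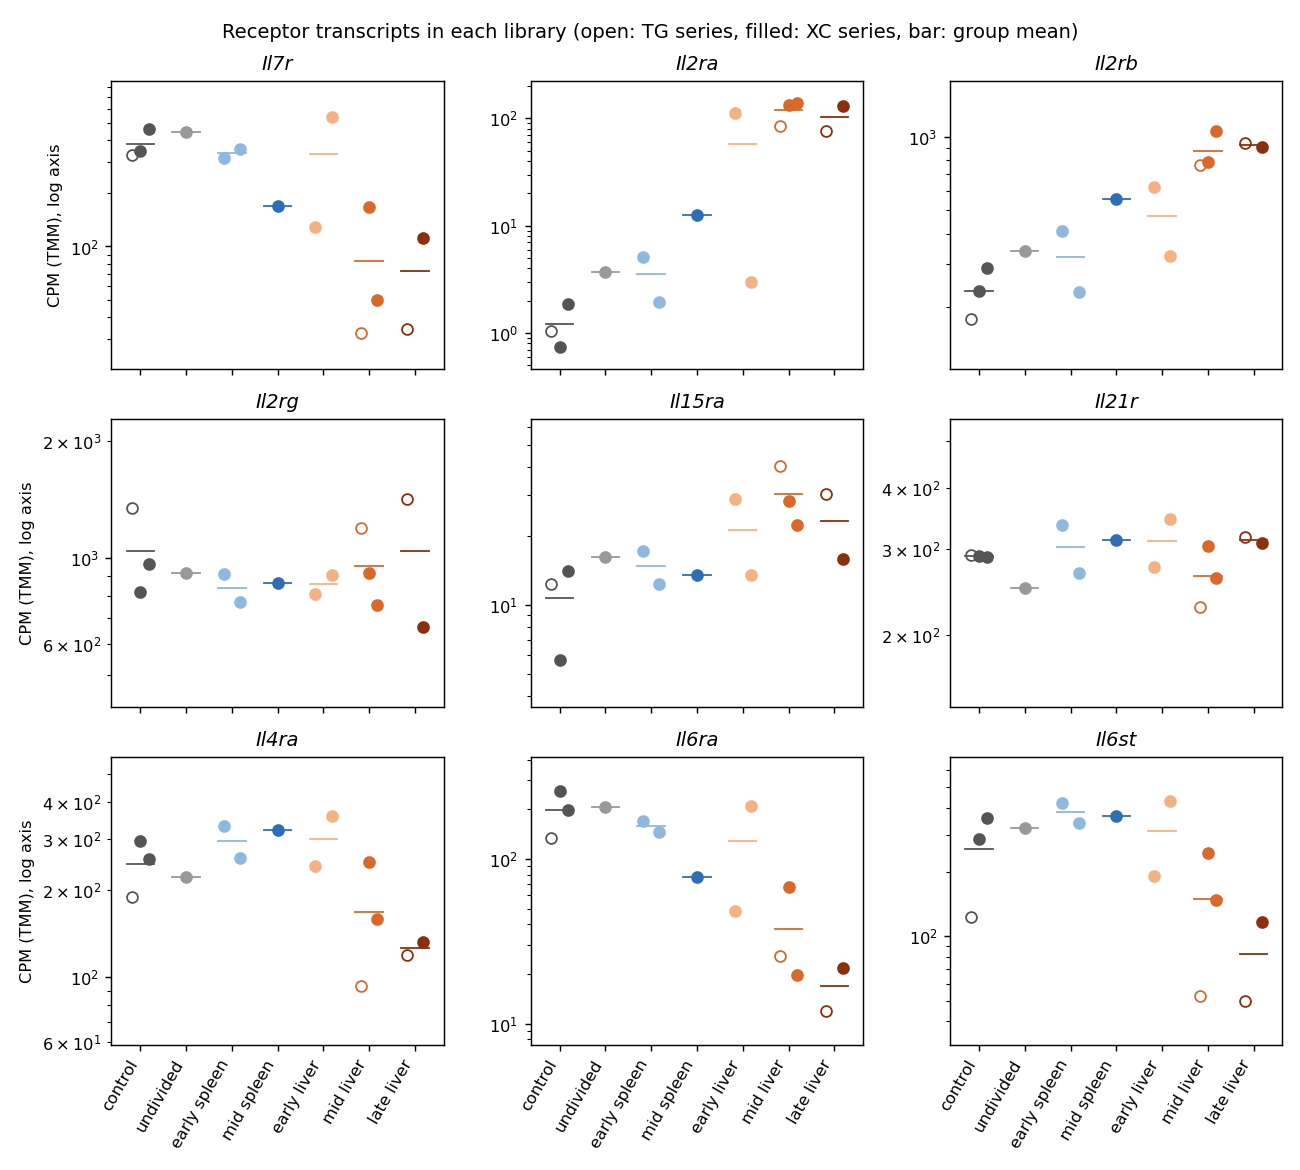
Level of each receptor transcript in 14 libraries, in CPM scaled by TMM on a log axis, by group. Each circle is 1 library (open for the TG series, filled for the XC series) and the bar is the group mean. Mid and late liver libraries lie above every control for Il2ra, Il2rb and Il15ra and below every control for Il7r and Il6ra, and the 2 early liver libraries lie far apart for these genes.

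Il7r (ENSMUSG00000003882.5, chromosome 15, 9505788 to 9530176, minus strand, GRCm38) encodes the IL-7 receptor alpha chain. Its level was 328, 344 and 459 CPM in controls 1 to 3, 32.6, 167 and 49.6 CPM in mid liver and 34.3 and 111 CPM in late liver. All 5 liver libraries were below all controls. The fall was 5.38-fold in mid liver (log2 fold change -2.43, SE 0.68, adjusted p = 0.0359) and 5.53-fold in late liver (log2 fold change -2.47, SE 0.79, adjusted p = 0.0442). On a log scale the liver libraries varied among themselves by more than the controls did, and the TG libraries were the lowest of each group. The log2 difference of group means was -3.33 (mid) and -3.26 (late) within the TG series and -1.89 and -1.85 within the XC series. Leaving out 1 library moved the log2 fold change between -3.12 and -1.92 in mid liver, with adjusted p from 0.0328 to 0.141, and between -2.84 and -1.87 in late liver, with adjusted p from 0.0586 to 0.239. With the day 0 controls only, the adjusted p was 0.0686 in mid and 0.0714 in late liver, and with no series term 0.0817 and 0.0783.

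The 250 bases before the RefSeq start of Il7r (chr15:9529877-9530126, minus strand, GRCm38.p6) are shown because Il7r carried the clearest loss among the gamma chain receptors, with the letters of 2 searched motifs in capitals, and the same window of Il2ra (chr2:11642542-11642791, plus strand), the gene with the largest rise of the 9, is set beside it.
Il7r: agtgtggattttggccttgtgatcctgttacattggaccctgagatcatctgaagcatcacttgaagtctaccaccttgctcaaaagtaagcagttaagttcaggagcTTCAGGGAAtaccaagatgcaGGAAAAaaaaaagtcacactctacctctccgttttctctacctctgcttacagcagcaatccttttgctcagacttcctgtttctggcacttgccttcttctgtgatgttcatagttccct
Il2ra: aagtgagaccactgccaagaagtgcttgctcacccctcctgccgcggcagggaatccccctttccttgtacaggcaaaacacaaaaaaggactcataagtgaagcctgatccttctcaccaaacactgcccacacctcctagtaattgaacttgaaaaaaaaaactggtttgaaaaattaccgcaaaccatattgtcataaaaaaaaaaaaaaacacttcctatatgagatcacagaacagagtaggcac
Motifs were searched on both strands in the 250 bases before each start. The capitals in Il7r mark TTCAGGGAA, a match to the STAT motif TTCNNNGAA that begins 142 bases before the start, and GGAAAA, the NFAT motif, 121 bases before it. The Il7r window lies inside the GENCODE gene, which reaches 9530176, so both matches are downstream of that annotated start. The motifs TTCNNNGAA and GGAAAA occurred in 7.02% and 20.4% of 32851 promoters. The FOXO motif GTAAACA, present in 3.17% of promoters, was not in the Il7r window but lay 38 bases before the start of Il21r, where it overlapped a RUNX motif (TGTGGT, 14.0% of promoters). The Il2ra window held none of the 7 motifs searched, which also included AP-1 (TGANTCA), an ETS motif (CCGGAAGT) and a T-box motif (GGTGTGA), and 8 of the 9 members had an entry in the promoter table.

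Il2ra (ENSMUSG00000026770.5, chromosome 2, 11642807 to 11693193, plus strand) encodes CD25, the private alpha chain that gives the IL-2 receptor its high affinity. Its level was 1.05, 0.742 and 1.88 CPM in controls and 84.2, 133 and 139 CPM in mid liver, with 77.1 and 129 CPM in late liver. There was no overlap between liver and control libraries, and the lowest of the 5 liver libraries was far above the highest control. The rise was 94.9-fold in mid liver (log2 fold change 6.57, SE 1.24, adjusted p = 0.0220) and 87.1-fold in late liver (log2 fold change 6.44, SE 1.26, adjusted p = 0.0134). The log2 ratio of group means was smaller in TPM, 5.84 in mid and 5.34 in late liver, than in scaled CPM, 6.60 and 6.40. It had nearly the same size in both series, with log2 differences of 6.33 and 6.70 in mid and 6.20 and 6.62 in late liver for TG and XC. Leaving out 1 library gave log2 fold changes of 6.21 to 6.88 (adjusted p from 0.0346 to 0.102) in mid and 6.11 to 6.73 (adjusted p from 0.0321 to 0.0807) in late liver. Foxp3, which marks the regulatory T cells that also carry CD25, was at 0.174 to 2.98 CPM across the 14 libraries. Controls had 0.613, 0.800 and 0.260 CPM of it and mid liver 0.746, 0.689 and 1.97 CPM. Late liver had 2.22 and 2.98 CPM, above all controls, and the lowest value was in early liver replicate 1. The part of such cells in the Il2ra level was not tested.

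Il2rb (ENSMUSG00000068227.9, chromosome 15, 78479256 to 78495271, minus strand) encodes the signalling beta chain used by both IL-2 and IL-15. Controls had 178, 231 and 289 CPM. Mid liver libraries had 768, 786 and 1060.5 CPM and late liver libraries 946 and 910.3 CPM, so that all liver libraries were above all controls and the 2 late libraries lay close together. The rise was 3.73-fold in mid liver (log2 fold change 1.90, SE 0.28, adjusted p = 0.0204) and 4.13-fold in late liver (log2 fold change 2.04, SE 0.30, adjusted p = 0.00871). The log2 difference was 2.11 (TG) and 1.83 (XC) in mid and 2.41 and 1.81 in late liver. Fits without 1 library gave log2 fold changes between 1.76 and 2.04 in mid and between 1.84 and 2.32 in late liver, with adjusted p from 0.0232 to 0.102 and from 0.0201 to 0.0802.

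Il15ra (ENSMUSG00000023206.16, chromosome 2, 11705290 to 11734317, plus strand) encodes the chain that binds IL-15 and presents it to cells carrying the beta and gamma chains. It was a low transcript, with 12.2, 5.72 and 14.1 CPM in controls, 40.4, 28.4 and 22.2 CPM in mid liver and 30.3 and 15.9 CPM in late liver. All mid and late liver libraries were above the controls, late liver replicate 2 only narrowly. The rise of 2.74-fold in mid liver passed the test (log2 fold change 1.45, SE 0.39, adjusted p = 0.0284), and the late liver value of 0.92 (SE 0.43, adjusted p = 0.117) did not. The late liver value passed without control replicate 3 (1.35, adjusted p = 0.0351) and with no count filter (adjusted p = 0.0333). With 1 library left out the mid liver log2 fold change ranged from 1.18 to 1.94 and its adjusted p from 0.0374 to 0.131, and it passed only without control replicate 3. It did not pass with no series term (adjusted p = 0.0659) or in the XC series alone (0.199). Reads of this gene were spread by kallisto over 18 annotated transcripts, so no single form was followed.

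Il2rg (ENSMUSG00000031304.18, chromosome X, 101264378 to 101268255, minus strand), the chain shared by all gamma chain receptors, was the most abundant member per length in every group. Its level was 1342, 819 and 966 CPM in controls, 1195, 916 and 759 CPM in mid liver and 1422 and 663 CPM in late liver. The groups overlapped, and the TG libraries were the highest of their groups. The log2 fold change was -0.14 (SE 0.19, adjusted p = 0.589) in mid and -0.20 (SE 0.22, adjusted p = 0.465) in late liver, and it turned to 0.12 without late liver replicate 2. In TPM, the abundance per transcript length within a library, late liver had 472 and 394 TPM, below the 672, 518 and 691 TPM of controls. Of the 31-base words in Il2rg transcripts, 28.7% also occur in other genes, most often in the annotation Gm20489, which kallisto gave at most 1.24 TPM in any library, so the gene's count carries an error that the test does not include.

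The make-up of Il2rg transcripts differed between groups. Il2rg-204, annotated as a fragment with a retained intron and no coding sequence, took 9.85%, 11.7% and 8.90% of the gene's TPM in controls, 2.20%, 5.34% and 5.27% in mid liver and 1.18% and 4.60% in late liver. All 5 liver libraries were below all controls. The undivided library (9.57%) and both early spleen libraries (9.91% and 9.69%) were within the range of controls, the mid spleen library (8.17%) was below all controls, and the early liver libraries split, with 7.45% and 12.0%. Over all genes that have a retained-intron transcript, the share of TPM in such transcripts also moved, from 16.1% to 16.9% in controls to 12.7% to 14.1% in mid liver, 10.5% and 12.1% in late liver and 14.1% in mid spleen. The share was not tested. As a share of estimated counts, Il2rg-204 was 9.12% ± 1.38 (SD, n = 3) in controls, 3.86% ± 1.74 (SD, n = 3) in mid liver libraries, and in late liver 2.64% ± 2.30 (SD, n = 2).

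**Figure D2:**
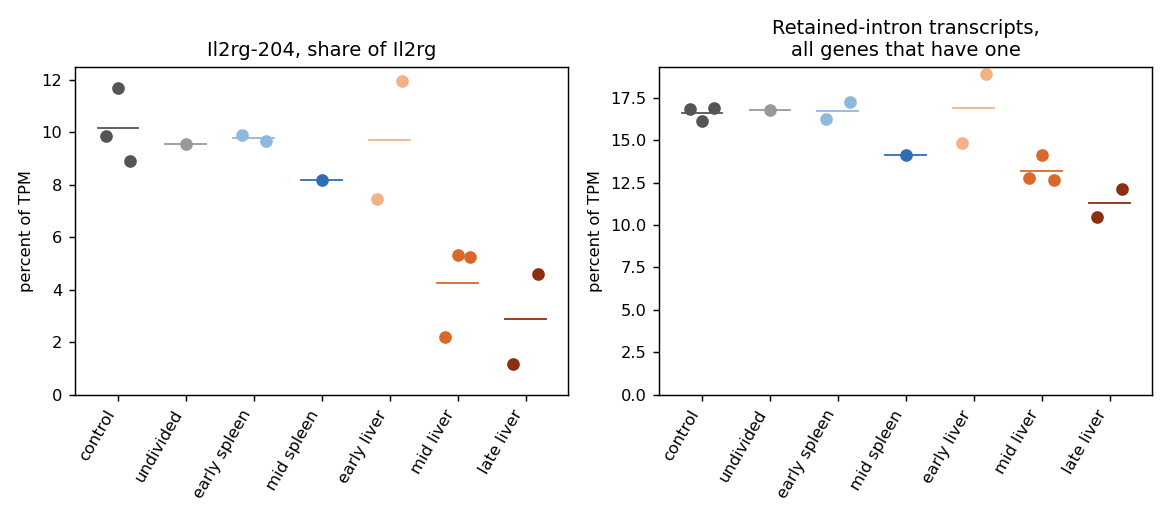
Share of TPM in Il2rg-204, a retained-intron transcript of Il2rg (left, percent of the gene's TPM), and in all retained-intron transcripts of genes that have one (right, percent of TPM), by group. Points are libraries and bars are group means. Mid and late liver libraries are at 1.18% to 5.34% for Il2rg-204, below controls at 8.90% to 11.7%, and the share over all genes is lower in these libraries too.

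Il21r (ENSMUSG00000030745.9, chromosome 7, 125603429 to 125633570, plus strand) encodes the IL-21 receptor chain that pairs with the gamma chain. In scaled CPM, though not in TPM, it was the least variable member. It had 292, 291 and 288 CPM in controls, 228, 304 and 262 CPM in mid liver and 317 and 308 CPM in late liver. The log2 fold change was -0.16 (SE 0.17, adjusted p = 0.493) in mid liver. In late liver it was 0.10 (SE 0.20, adjusted p = 0.702), and this fitted value was between 0.025 and 0.24 in the 16 alternatives. The log2 ratio of late to control means, another quantity, was 0.11 in scaled CPM, -0.23 in CPM without TMM factors and -0.32 in TPM. Reads were assigned about evenly to a pair of transcripts that differ by 1 coding exon, chr7:125629738-125629834 (GRCm38, plus strand), which is shown because the form without it reads 804 coding bases against 1587.
Exon of Il21r-201 absent from Il21r-202: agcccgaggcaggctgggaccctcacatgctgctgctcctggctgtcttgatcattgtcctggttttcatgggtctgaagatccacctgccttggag
The exon is 97 bases long. Il21r-201, which holds it, took 45.2% to 56.4% of the gene's TPM over the 14 libraries and Il21r-202 39.1% to 51.7%. The share of Il21r-201 was 46.6% ± 1.25 (SD, n = 3) in controls, 47.4% ± 0.873 (SD, n = 3) in mid liver and 48.9% ± 4.06 (SD, n = 2) in late liver, which overlapped. It was higher in the spleen libraries of leukemia-bearing mice, at 53.6% and 56.4% in early spleen, 52.9% in mid spleen and 53.2% in the undivided library.

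Il4ra (ENSMUSG00000030748.9, chromosome 7, 125552120 to 125579474, plus strand), the IL-4 receptor alpha chain, neighbours Il21r on chromosome 7. Controls had 189, 294 and 256 CPM, mid liver 93.6, 249.9 and 158 CPM and late liver 120 and 132 CPM. Late liver libraries were below all controls, and mid liver overlapped them through replicate 2. The log2 fold change was -0.63 (SE 0.27, adjusted p = 0.0973) in mid and -0.85 (SE 0.31, adjusted p = 0.0573) in late liver, neither of which passed. DESeq2's Wald test passed it in late liver, and edgeR passed it in mid liver without replicate 2. Most Il4ra reads were assigned to a form that annotation marks for nonsense-mediated decay, Il4ra-205, which holds an added exon of 114 bases (chr7:125571934-125572047). That exon is shown because only its first 17 bases are coding, after which the reading frame stops at 690 bases in place of 2430 in Il4ra-201. Soluble forms of the mouse IL-4 receptor made by alternative splicing are known.
Coding part of the added Il4ra-205 exon: caagtaatgaaaatctg
Il4ra-205 took 67.0%, 77.6% and 79.0% of the gene's TPM in controls, 84.1%, 82.3% and 81.3% in mid liver and 83.7% and 84.9% in late liver, all 5 liver libraries above all controls. The undivided (79.1%) and mid spleen (79.4%) libraries and replicate 1 of early spleen (80.6%) and of early liver (80.6%) were above all controls too, and control replicate 1 was the lowest library by far. The transcripts also differ at their 3′ ends, so the share is not a direct count of reads that span the exon, and the difference was not tested.

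Il6ra (ENSMUSG00000027947.11, chromosome 3, 89864059 to 89913196, minus strand), the IL-6 binding chain, fell at both time points, and in late liver by more than any other member. Controls had 134, 259.7 and 199.5 CPM, mid liver 25.8, 67.6 and 19.7 CPM and late liver 11.9 and 21.8 CPM. All mid and late liver libraries were below all controls. The fall was 5.31-fold in mid liver (log2 fold change -2.41, SE 0.61, adjusted p = 0.0281) and was larger in late liver (log2 fold change -3.46, SE 0.76, adjusted p = 0.0162). The series gave like values: log2 differences were -2.38 (TG) and -2.39 (XC) in mid and -3.50 and -3.39 in late liver. With 1 library left out the log2 fold change lay between -2.97 and -2.04 in mid (adjusted p from 0.0351 to 0.110) and between -3.57 and -3.38 in late liver (adjusted p from 0.0314 to 0.118). With day 0 controls only the mid liver adjusted p was 0.0526.

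Il6st (ENSMUSG00000021756.12, chromosome 13, 112464070 to 112510086, plus strand) encodes gp130, the signalling chain that IL-6 shares with IL-27, LIF and oncostatin M. Controls had 123, 287 and 359.8 CPM, mid liver 52.6, 247 and 148 CPM and late liver 49.5 and 117 CPM. Late liver libraries were below all controls, control replicate 1 being the lowest control by far. The fall was 2.62-fold in late liver (log2 fold change -1.39, SE 0.39, adjusted p = 0.0258), and the mid liver value of -0.89 (SE 0.33, adjusted p = 0.0667) did not pass. The mid liver value passed in 5 of 17 alternatives, among them DESeq2 (adjusted p = 0.0390) and counts scaled from TPM (0.0386). With 1 library left out the late liver value ranged from -1.57 to -1.14 and its adjusted p from 0.0443 to 0.175, passing only without control replicate 2. It did not pass with no series term (adjusted p = 0.128), with day 0 controls only (0.0517) or in the XC series alone (0.192). Transcript use set the TG series apart: Il6st-203 took 22.8%, 40.3% and 40.3% of the gene's TPM in control, mid and late liver replicate 1, and 6.43% to 11.8% in the 11 XC libraries.

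**Figure D3:**
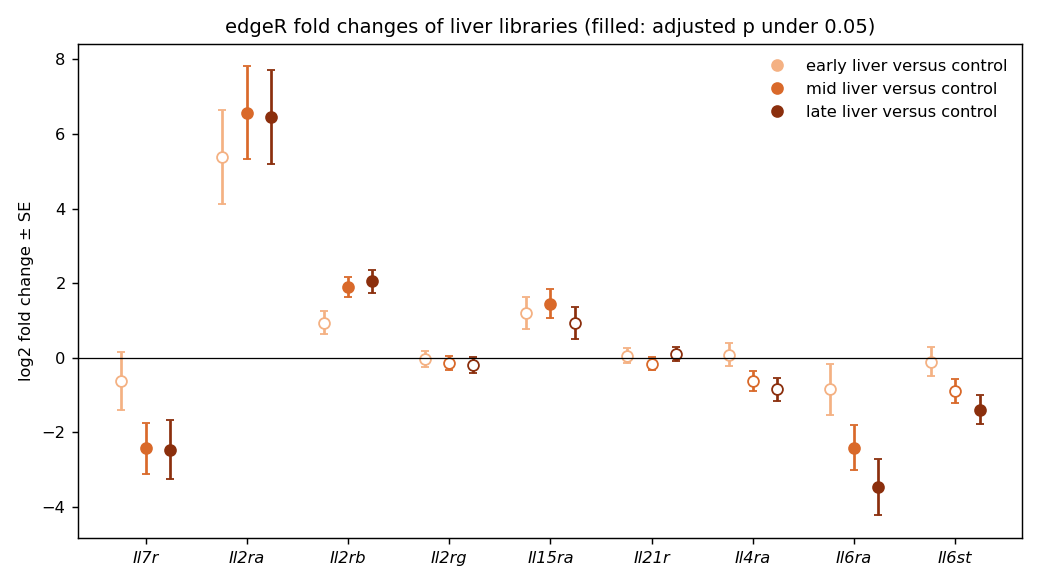
Fitted log2 fold change of early, mid and late liver against control for the 9 members, with the standard error as bars. Filled circles have an edgeR adjusted p under 0.05. Il2ra and Il2rb are above 0 and Il7r and Il6ra below it with filled circles at mid and late, Il2rg and Il21r stay near 0, and no early circle is filled.

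Per length, the order of the chains changed. In control libraries the mean was 627 ± 95.1 TPM (SD, n = 3) for Il2rg, 117 ± 33.0 for Il7r, 116 ± 18.8 for Il21r, 80.8 ± 35.5 for Il2rb, 62.6 ± 21.1 for Il4ra, 61.8 ± 37.9 for Il6st, 55.9 ± 24.3 for Il6ra, 8.01 ± 4.33 for Il15ra and 0.487 ± 0.201 for Il2ra. Neighbours from Il7r to Il6ra lay within each other's spread, and only Il2rg at the top and Il15ra and Il2ra at the bottom stood clear. In late liver Il2rg (433 ± 55.3 TPM, SD, n = 2) was followed by Il2rb (238 ± 92.1), Il21r (92.8 ± 33.9), Il4ra (23.7 ± 11.2), Il2ra (19.7 ± 12.9), Il7r (19.0 ± 17.4), Il6st (15.0 ± 15.6), Il15ra (12.1 ± 0.112) and Il6ra (3.79 ± 2.89). Neighbours in that order from Il4ra to Il6st lay within each other's spread there.

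The balance between chains that pair with Il2rg was read within each library. Il2rg exceeded Il2rb by 14.7, 6.46 and 5.93 times in TPM in controls, by 3.04, 2.08 and 1.22 times in mid liver and by 2.74 and 1.30 times in late liver. The ratio of Il2rb to Il7r went the other way, with 0.501, 0.758 and 0.756 in controls, 22.2, 5.40 and 24.8 in mid liver and 25.8 and 9.68 in late liver. Neither ratio overlapped between control and liver libraries of mid and late time points. Il2rb exceeded Il2ra by 159 to 169 times in controls and by 8.08 to 16.3 times in mid and late liver, so beta chain transcripts remained the more abundant in all 14 libraries. Of the IL-6 receptor pair, the ratio of Il6st to Il6ra was 0.701, 0.946 and 1.48 in controls, 1.28, 2.81 and 5.95 in mid and 2.28 and 4.45 in late liver, which overlapped with control in mid liver.

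**Figure D4:**
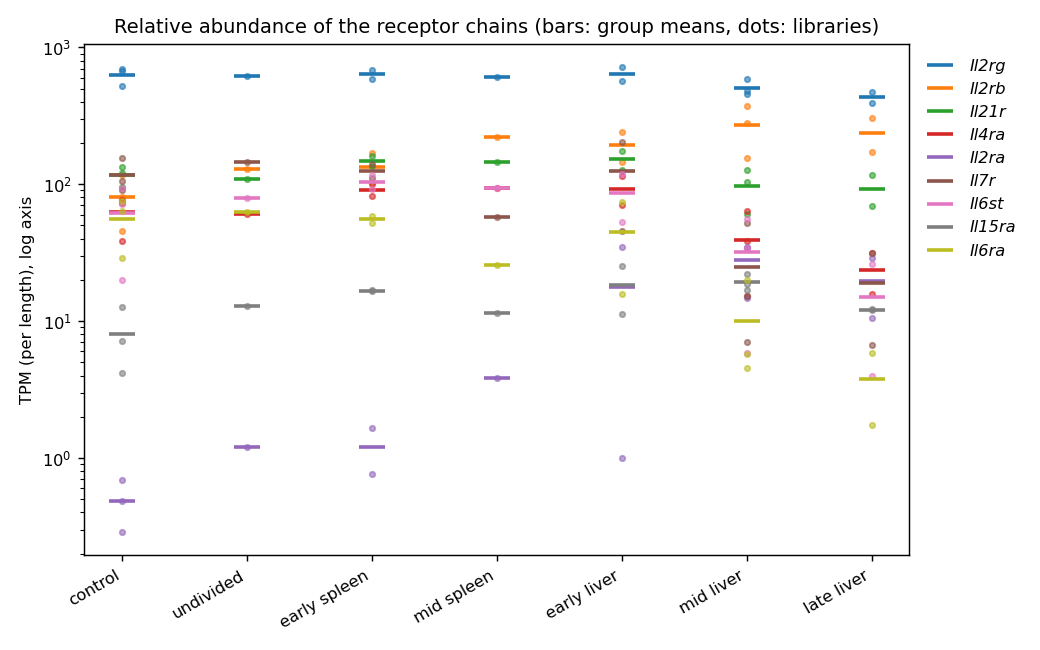
Abundance per length of the 9 chains in TPM on a log axis, by group. Dots are libraries and bars are group means. Il2rg is highest throughout, Il7r and Il21r are next in control by group mean (117 and 116 TPM), and Il2ra is lowest in control (0.487 TPM). In late liver Il7r and Il2ra lie close together (19.0 and 19.7 TPM).

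The early liver libraries disagreed. Early liver replicate 1 had 112 CPM of Il2ra, 619 CPM of Il2rb, 129 CPM of Il7r and 48.2 CPM of Il6ra, and replicate 2 had 3.01, 325, 537 and 209 CPM. Replicate 1 was within the range of mid liver for Il2ra, Il7r and Il6ra, and replicate 2 was within or above the range of control for Il7r and Il6ra. No member passed in early liver against control (adjusted p from 0.455 to 0.972), where 0% of all genes passed, and 3 members had an unadjusted p under 0.05 in the edgeR fit, where 10.2% of all genes had: Il2ra (log2 fold change 5.37, SE 1.25), Il2rb (0.94, SE 0.31) and Il15ra (1.20, SE 0.44). DESeq2's Wald test passed 1 member, Il2ra, and 350 of all genes. Without early liver replicate 2, where 1902 of all genes passed, edgeR passed Il2ra (6.34), Il2rb (1.32) and Il15ra (1.64), with replicate 1 then assumed to vary like the other groups, and without replicate 1 no member and 1 of all genes passed (Il2ra 1.12). With no count filter 4 members passed (Il2ra, Il2rb, Il15ra and, lower, Il6ra; 1480 of all genes). No member passed between late and mid liver (adjusted p from 0.922 to 0.998), where 0% of all genes passed, 5.34% of all genes but 0 members had an unadjusted p under 0.05, and DESeq2 passed 0 members. With no count filter Il6ra passed (log2 fold change -1.09, adjusted p = 0.0116 by edgeR, 434 of all genes).

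Early spleen libraries had 316 and 357 CPM of Il7r, 5.15 and 1.95 CPM of Il2ra, 411 and 229 CPM of Il2rb and 171 and 145 CPM of Il6ra. None of the 9 members passed against control in the fit of all 14 libraries (adjusted p from 0.872 to 0.989), where 0% of 15449 genes passed, 0 members had an unadjusted p under 0.05 (6.28% of all genes) and DESeq2 passed 0 members. With no count filter Il2ra passed (log2 fold change 1.36, adjusted p = 0.00082 by edgeR, 642 of all genes). That fit moved the median log2 fold change over all genes to 0.60, from 0.010 in the main fit. In the main fit Il2ra had a log2 fold change of 1.38 (SE 1.20) and did not pass. Early liver against early spleen, a comparison of tissues at a shared day, passed no member either (0% of all genes). Only Il2ra had an unadjusted p under 0.05 there (log2 fold change 4.01, SE 1.34, adjusted p = 0.545, 9% of all genes), and DESeq2 passed 0 members. The Il2ra value was -0.26 without early liver replicate 1 and 4.96 without replicate 2. It passed with no count filter (984 of all genes), where the median over all genes was -0.57, against -0.015 in the main fit.

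The undivided and mid spleen groups held 1 library each and were not tested. The undivided library, from leukemia-bearing mice at day 18, had 440.2 CPM of Il7r, 207 CPM of Il6ra, 3.71 CPM of Il2ra and 338 CPM of Il2rb. The first pair lay within the range of the 3 controls and the last pair above it. Its Il2ra level was below every mid and late liver library. The mid spleen library of day 14 stood between the control and mid liver ranges for Il2ra (12.7 CPM) and Il2rb (553 CPM) and for Il6ra (78.2 CPM). Its 168 CPM of Il7r was just above the highest mid liver library. Il4ra and Il6st were at 321 and 368 CPM there, above all controls.

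Over the 14 libraries, a few other transcripts followed each chain closely, as a description that shares libraries and depth. Among 5882 genes with a mean log2 CPM of at least 5, those most like Il7r in log2 CPM were Sh3bp5 (Pearson r = 0.983), Akap8l (0.982) and Tcp11l2 (0.978). Those most like Il2ra were Adss (0.985), Ttc39b (0.980) and Hivep3 (0.979), and those most like Il2rb were Ssrp1 (0.984), Tfdp1 (0.983) and Adss (0.981). For Il6ra they were Dyrk2 (0.988), Dcaf17 (0.985) and Cmah (0.981), and for Il6st 9930111J21Rik1 (0.987), Etnk1 (0.982) and Arhgef1 (0.980). For Il4ra they were Pdlim5 (0.954), Gclc (0.947) and Abcc5 (0.944), for Il2rg Pdhb (0.941), Mettl23 (0.934) and Mpv17 (0.932), and for Il15ra Rcl1 (0.923), Dkc1 (0.919) and Cd5 (0.918). Il21r had the loosest matches, with Gimap3 (0.799), Rcsd1 (0.745) and Tbc1d20 (0.721). Within the set, the correlation was 0.961 between Il2ra and Il2rb, 0.947 between Il7r and Il6ra and 0.941 between Il4ra and Il6st, and -0.877 between Il2ra and Il6ra.

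Genes of the same pathways were counted from gene lists, beside 31.3% of all genes that passed in mid and 37.5% in late liver. Of 10 other cytokine receptor chains, which include partners of the members and the related IL-12 receptor chains, 7 were tested and 5 passed at each time point (2 higher and 3 lower in mid, 4 higher and 1 lower in late liver; median log2 fold change 0.31 and 1.33). Il12rb1, a chain shared by IL-12 and IL-23 receptors, rose in mid (log2 fold change 2.40, SE 0.45, adjusted p = 0.0220) and late liver (2.20). Crlf2, the TSLP receptor chain that pairs with Il7r, rose from 15.0, 16.1 and 19.4 CPM in controls to 27.2, 31.7 and 29.2 CPM in mid and 37.1 and 47.1 CPM in late liver. Il9r, the private chain of IL-9, was at 0.404, 0.215 and 0.454 CPM in controls and 3.02 and 7.88 CPM in late liver. It passed there (adjusted p = 0.00898), and Il12rb2 passed in late liver as well (1.41). For Il12rb2, however, the lower of the late liver values (4.11 and 15.9 CPM) fell inside the control range of 1.84 to 6.75 CPM. Of the gp130 partners, Il27ra (-1.02), Lifr (-1.77) and Il11ra1 (-1.28) fell in mid liver, and Il11ra1 fell in late liver (-1.90). Il27ra was at 396 to 524 CPM in controls and 168 to 282 CPM in mid liver. The others were low: Lifr at 0.649 to 1.94 and 0.292 to 0.451 CPM, and Il11ra1 at 4.18 to 12.0 and 1.64 to 3.97 CPM.

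Of 13 ligands, 4 had counts enough to be tested, and no count of calls is read from them, since Il2 and Lif were under the minimum of 10 counts in every control and entered the fit through the groups where they are high. Il2 was at 0.0449, 0 and 0.0324 CPM in controls, at most 3.18 estimated counts, and at 68.6, 25.2 and 16.8 CPM in mid liver and 19.8 and 0.595 CPM in late liver, so the late libraries differed widely. Lif, a gp130 ligand, was at 0.105, 0.156 and 0.292 CPM in controls (7.27 to 8.55 estimated counts) and at 9.72 to 24.9 CPM in the 5 libraries of mid and late liver. Il15 fell from 3.50, 1.39 and 0.908 CPM to between 0.152 and 0.471 CPM (log2 fold change -2.66 and -2.72), on 7 to 16 counts in the liver libraries. The highest Il15 value was in control replicate 1, the library with the most myeloid marker transcripts.

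Downstream of the receptors, 0 of 9 kinases and STATs passed in mid and 1 of 9 in late liver, Jak1 (log2 fold change -1.07, SE 0.28, adjusted p = 0.0213). Jak3, the kinase that binds the gamma chain, had values of 0.24 and 0.70 that did not pass. Of 13 inhibitors 3 passed at both time points: Cish, which is induced by STAT5, rose (3.02 and 3.10), Ptpn11, the phosphatase SHP-2, rose (1.34 and 1.72) and Pias1 fell (-0.96 and -0.92). Of 17 genes listed as STAT5 targets, 10 passed in mid (9 higher, 1 lower) and 7 in late liver (all higher), with medians of 1.59 and 1.33. The share was 58.8% in mid and 41.2% in late liver, the latter near the 37.5% of all genes. In late liver the highest were Gzmb, encoding granzyme B (log2 fold change 8.92), Tnfrsf4, encoding the costimulatory receptor OX40 (6.61), Il2ra itself (6.44), Prdm1, encoding BLIMP-1 (3.49), Cish and Cdk6 (2.36). The lower one in mid liver was the survival gene Bcl2 (-0.94, adjusted p = 0.0302), named after its value was seen.

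Of 10 factors known to act on Il7r, 5 passed in mid (1 higher, 4 lower) and 6 in late liver (1 higher, 5 lower), with medians of -0.58 and -0.81. Foxo1 fell (-1.45 and -1.71), and so did Foxp1 (-0.70 and -0.93), Ets1 (-0.69 and -0.75) and Nr3c1, the glucocorticoid receptor (-1.07 and -1.01). Ets1 levels in mid (403 to 1094 CPM) and late liver (441 to 975 CPM) overlapped the controls (849 to 1607 CPM). Foxp1 overlapped the controls narrowly in mid liver. Gfi1 rose (1.52 and 1.71), and Runx1 fell in late liver (-1.11). The part of these factors in the change of Il7r was not tested. Of 6 genes of naive T cells, 4 fell in late liver and fell in mid liver too: S1pr1 (-2.63 and -3.31), Klf2 (-1.85 and -2.03), Lef1 (-1.47 and -1.64) and Ccr7 (-1.30 and -1.22). Both T-box factors that act on Il2rb, Tbx21 (4.23, adjusted p = 0.0220) and Eomes (2.61, adjusted p = 0.0454), rose in mid liver, and Tbx21 rose in late liver (3.79), where Eomes had a log2 fold change of 2.61 that did not pass (adjusted p = 0.0544). Neither receptor sheddase, Adam10 or Adam17, passed at either time point.

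**Figure D5:**
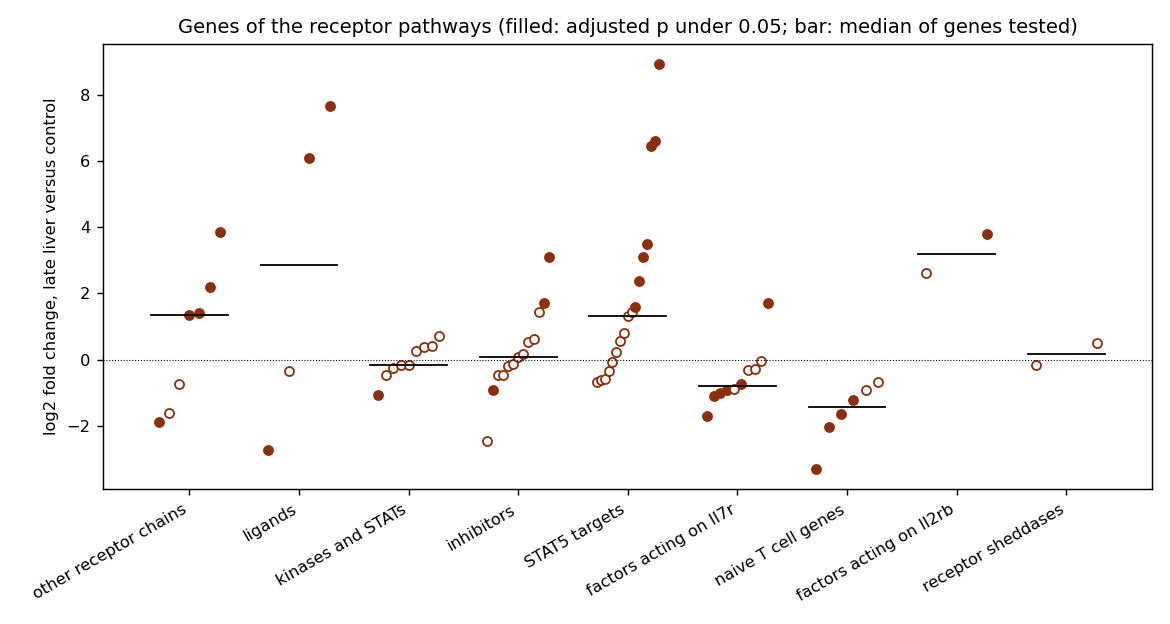
Fitted log2 fold change of late liver against control for the tested genes of each list. Filled circles have an edgeR adjusted p under 0.05 and the bar is the median of the genes tested. The fitted values of the ligands Il2 (7.67) and Lif (6.08) rest on controls under 10 counts, STAT5 targets reach 8.92, naive T cell genes lie below 0, and 1 of 9 kinases and STATs is filled.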

How the data were processed

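Sorted T cells were profiled by RNA-seq. Per the labels and methods, the authors quantified reads with kallisto against mouse transcripts. Versions not printed here were not given in the sources used here. The deposited tables hold estimated counts, TPM and effective length (another unit, in bases) per transcript. Estimated counts were summed by GENCODE vM21 gene (98.2% of 118783 transcripts matched) and over the runs of a library (26 runs, 15 libraries), and rounded. TPM was recomputed after summing runs. Depth ranged from 22918996 to 71358287 estimated counts per library, and errors beyond the libraries' spread were not included.

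edgeR 4.0.16 (quasi-likelihood, robust, TMM, group and series terms, Benjamini-Hochberg, R 4.3.3) was fitted to 11 libraries for control and liver groups and to 14 for comparisons with early spleen. Genes needed at least 10 counts in at least 6 libraries. The fit was tested on simulated data with 200 changed genes in 1 group and no series effect. In the real libraries far more genes were called in mid and late liver, so the rates hold for the simulated setting only. At a log2 change of 4, 95.5% of changed genes were recovered in mid liver against control (14393 genes), and at 2, 78.5% (14421 genes). At 2, 66.0% were recovered in late liver against control (14427 genes) and 59.0% in early liver against early spleen (15259 genes), and false calls made up 2.48% to 7.48% of calls over the comparisons. Alternatives were DESeq2 1.42.0, other scalings, filters, designs and library subsets. Named genes were the members, the 3 most correlated genes of each, up to 6 genes per list that passed in mid or late liver, by size of the late liver change, and partners of listed chains. The sheddases were named as a complete list of 2 genes. Members and lists were chosen with earlier results of these data known. The oligo-dT library entered no comparison. Results for some listed genes are not reported here.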

Additional observations from a re-analysis of the deposited data

How the results depend on the processing

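Sign changes were followed for every member in mid and late liver against control. In the other comparisons, where no member passed, only the 3 members of smallest p were followed. Among the results followed, 4 turned sign when 1 library was left out. The 4 were Il2rg in late liver against control (-0.45 to 0.12 with 1 library left out), Il2rb in early spleen against control (-0.083 to 0.74), and Il2ra (-0.26 to 4.96) and Il15ra (-0.13 to 0.97) in early liver against early spleen. Counts of all genes past the threshold moved too. In mid liver against control 1385 passed with no series term, 2355 with day 0 controls only and 0 in the XC series alone, and in late liver 2693 with no series term and 0 in the XC series alone. Day 0 controls only is the same fit as leaving out control replicate 3. In early liver against control 350 passed by DESeq2, 1480 with no count filter and 19 with day 0 controls only. Between late and mid liver 34 passed by DESeq2, 434 with no count filter and 5 with these 2 groups fitted alone. In early spleen against control 11 passed by DESeq2 and 642 with no count filter, and in early liver against early spleen 56 and 984. The fits with no filter also moved the median log2 fold change of all genes in these 2 comparisons, to 0.60 and -0.57. With 1 library left out the counts ranged from 0 to 3157 in mid, 0 to 4126 in late and 0 to 1902 in early liver against control. They ranged from 0 to 0 between late and mid liver, 0 to 162 in early spleen against control and 0 to 973 in early liver against early spleen. The causes were not tested. No paired analysis was possible because replicate numbers were given in accession order and pair no libraries.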

Other observations

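The day 0 control library made by oligo-dT priming entered no comparison. It held 421 CPM of Il7r, 1.28 CPM of Il2ra, 225 CPM of Il2rb and 637 CPM of Il2rg. Il15ra was at 8.30 CPM, Il21r at 253 CPM, Il4ra at 209.6 CPM, Il6ra at 277 CPM and Il6st at 261 CPM in it.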
